A study of Drosophila melanogaster with 4 samples.

Results

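Genes of meiotic chromosome structure were followed in *Drosophila melanogaster* ovaries. The 10 genes were chosen by their FlyBase symbols, and all 10 were found among the 17023 genes listed in the count tables. They comprise 3 cohesion genes (*sunn*, *ord* and *SMC1*), the central region genes *cona* and *c(3)G* of the synaptonemal complex, its lateral element gene *c(2)M*, the double-strand break genes *mei-W68* and *mei-P22*, the crossover gene *rec* and the segregation gene *nod*. Poly(A) RNA was sequenced from ovaries of flies aged 2 to 3 days after eclosion. All flies carried UAS-Dcr2, which strengthens RNA interference, and nosGAL4, which drives hairpins in germ cells and leaves the follicle cells, sheath and other somatic cells of the dissected ovary untargeted. The flies of 2 libraries also carried a hairpin against *bam*, the factor that a germline stem cell daughter needs to differentiate, and those of the other 2 a hairpin against *Nipped-A*, a scaffold protein of the Tip60 and SAGA acetyltransferase complexes. There was no untreated group, so each knockdown could be set only beside the other, not beside a wild-type ovary. The labels name neither the hairpin lines nor the number of flies pooled, and do not say whether libraries came from separate pools, so p-values reflect only how far these samples vary, which may be technical.

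In the fly ovary, meiotic prophase begins in the germarium after a differentiating daughter has divided into an interconnected cyst. Cohesin holds sister chromatids together, the synaptonemal complex joins homologous chromosomes along a lateral element on each chromosome and a central region between them, and programmed double-strand breaks made within this structure are repaired in part as crossovers. Germ cells without Bam stay in a stem-cell-like state and do not form the cysts in which these steps normally occur.

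The libraries held 21193517 to 47825006 counts, and 10245 genes had enough counts to be tested, all 10 meiotic genes among them. *bam* was 4.10-fold higher in the *Nipped-A* RNAi-labelled libraries (29.0 and 16.9 CPM, counts scaled to library size, against 4.70 and 6.52; edgeR adjusted p = 0.0254). *Nipped-A* was 1.62-fold higher in the libraries labelled as its own knockdown (430 and 439 CPM against 287 and 247, edgeR adjusted p = 0.0287), the direction opposite to that label. Without an untreated group, and with somatic cells untargeted, this does not show whether the knockdown worked or the label is right. *Nipped-A* also lies in the longest of 4 equal groups of genes by exonic length, whose median log2 fold change was 0.33. The part of length was not tested, and directions below refer to library labels only. Fold changes give the *Nipped-A* RNAi-labelled libraries over the *bam* RNAi-labelled ones, with n = 2 per group, the standard error after ±, and p-values from edgeR's quasi-likelihood test adjusted by Benjamini-Hochberg over the 10245 genes. A gene was called at an adjusted p below 0.05.

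*sunn*, *ord* and *cona* were 6.99-fold, 3.74-fold and 6.38-fold lower in the *Nipped-A* RNAi-labelled libraries. The other 7 meiotic genes were not called, with log2 fold changes from −0.49 for *c(3)G* to 1.40 for *nod*. Thus 3 of 10 meiotic genes were called lower, where 8.31% of all genes tested were called lower, and 0 of 10 were called higher by edgeR, where 11.3% of all genes were. At an unadjusted p below 0.05 *nod* was higher and 4 genes were lower (these 3 and *c(3)G*), and DESeq2 called *nod* higher and the same *sunn*, *ord* and *cona* lower. The groups did not overlap at 9 of the 10 genes, all except *rec*, beside 68.9% of all genes. The median log2 fold change of the 10 genes was −0.22, beside 0.00 over all genes tested. In ranks from the most negative of 10245 log2 fold changes, *sunn* was at 168, *cona* at 193 and *ord* at 405. Without *bam* RNAi-labelled library 1 or 2, edgeR called 0 genes (2373 and 1837 at an unadjusted p below 0.05; 1572 and 1202 called by DESeq2). The adjusted p-values of *sunn*, *ord* and *cona* were then 0.106 to 0.162 by edgeR, with log2 fold changes of −2.92 to −1.85, and DESeq2 called all 3 genes in both cases.

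**Figure D1:**
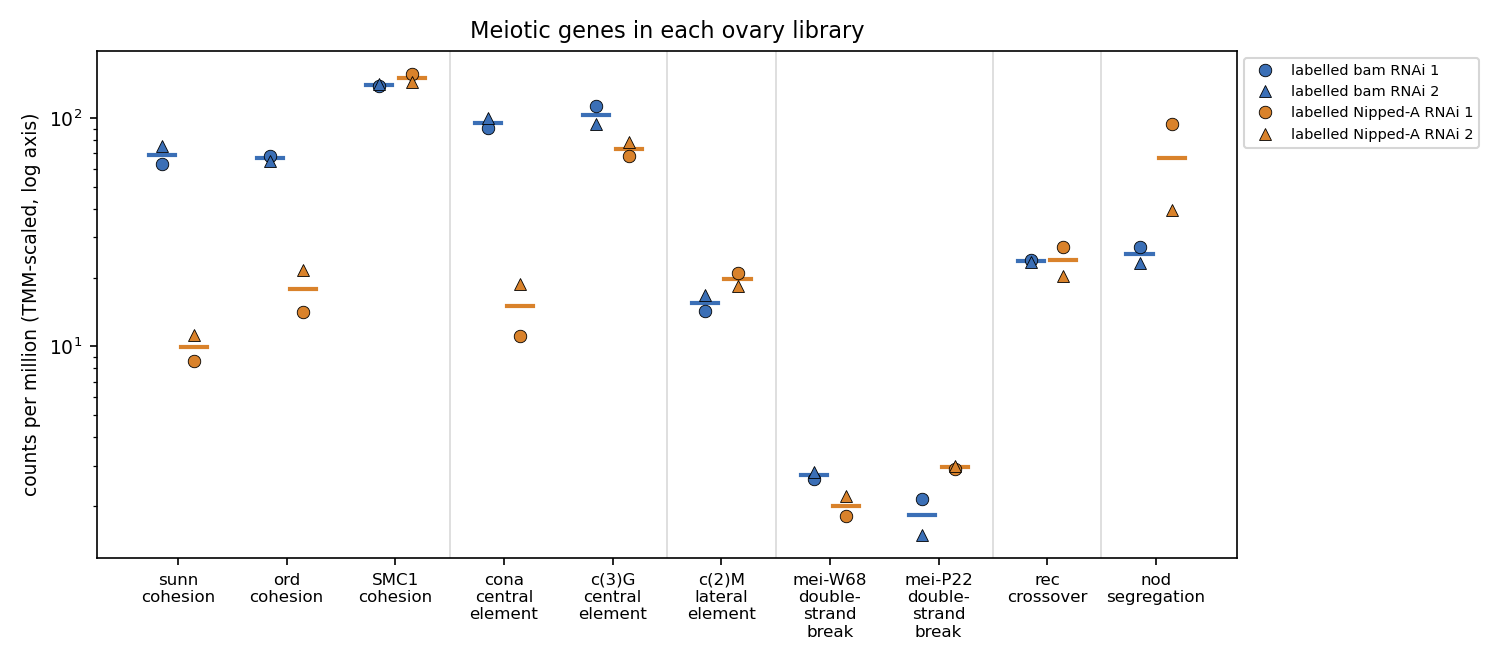
Level of each of the 10 meiotic genes in each library, in TMM-scaled CPM on a log axis; circles are replicate 1, triangles replicate 2 and bars the mean of a group. The points of *sunn*, *ord* and *cona* lie far lower in the *Nipped-A* RNAi-labelled libraries, the groups of *SMC1* and *rec* lie close together, and the *nod* points of those libraries lie far apart.

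Of the cohesion genes, *sunn* and *ord* were called lower and *SMC1* was not called. *sunn* (FBgn0052088, dm6 chromosome 3L, 11728348 to 11732016) encodes a stromalin-related protein required for sister centromere cohesion in meiosis. It had 2078 and 1776 counts, or 62.6 and 75.7 CPM, in *bam* RNAi-labelled libraries 1 and 2. It had 422 and 240 counts, or 8.59 and 11.2 CPM, in *Nipped-A* RNAi-labelled libraries 1 and 2. Both *bam* RNAi-labelled libraries were thus high and both of the others low, with no overlap. The means were 69.2 ± 9.23 and 9.92 ± 1.88 CPM (SD, n = 2), and the log2 fold change was −2.81 ± 0.24 (edgeR adjusted p = 0.00925; 95% interval −3.41 to −2.20).

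*ord* (FBgn0003009, chromosome 2R, 23271257 to 23275536) encodes a cohesion protein that acts in meiosis and is needed for a stable synaptonemal complex. Its levels were 68.3 and 64.8 CPM in the *bam* RNAi-labelled libraries and 14.1 and 21.5 CPM in the *Nipped-A* RNAi-labelled ones, from 459 counts or more in each library. The groups were again fully apart, although the *Nipped-A* RNAi-labelled libraries differed from each other by more than the *bam* RNAi-labelled ones. The log2 fold change was −1.90 ± 0.26 (edgeR adjusted p = 0.0151; 95% interval −2.56 to −1.25).

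*SMC1* (FBgn0040283, chromosome 3R, 24058287 to 24062815) encodes a core cohesin subunit used in mitotic and meiotic cells alike. It had 138 and 141 CPM in the *bam* RNAi-labelled libraries and 156 and 144 CPM in the *Nipped-A* RNAi-labelled ones. All 4 libraries were close together. Its log2 fold change of 0.11 ± 0.13 was not called (edgeR adjusted p = 0.580), and the 95% interval of −0.22 to 0.43 leaves out a change of the size seen in *sunn* or *ord*. Upper-quartile scaling moved the log2 fold change of the median gene by −0.21, and the sign of *SMC1* turned with it (−0.11), as it did with the exonic length trend removed (−0.08).

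Of the central region genes, *cona* was called lower and *c(3)G* was not called. *cona* (FBgn0038612, chromosome 3R, 18385828 to 18386887) encodes a central region protein without which the transverse filament does not assemble between homologues. It had 90.4 and 100.1 CPM in the *bam* RNAi-labelled libraries and 11.1 and 18.8 CPM in the *Nipped-A* RNAi-labelled ones, from 2998, 2348, 547 and 402 counts. The lowest *bam* RNAi-labelled library was thus well above the highest of the other group. The log2 fold change was −2.67 ± 0.30 (edgeR adjusted p = 0.0120; 95% interval −3.43 to −1.92). *cona* is the shortest of the 10 genes, with 857 exonic bases, and fold changes in these libraries fell with shorter length, to a median of −0.34 in the shortest of 4 equal groups of genes against 0.33 in the longest. With that trend removed *cona* was still called, at −2.27 (edgeR adjusted p = 0.0171; at most 0.147 over its 18 alternatives).

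*c(3)G* (FBgn0000246, chromosome 3R, 15789473 to 15792579) encodes the transverse filament protein that spans the central region. It had 113 and 94.0 CPM in the *bam* RNAi-labelled libraries and 68.4 and 78.6 CPM in the *Nipped-A* RNAi-labelled ones, so the groups did not overlap but lay close. The log2 fold change of −0.49 ± 0.17 was not called (edgeR adjusted p = 0.0915; unadjusted 0.0288; 95% interval −0.91 to −0.07). It was called under upper-quartile scaling (−0.70, edgeR adjusted p = 0.0377) and without *Nipped-A* RNAi-labelled library 2 (−0.53, edgeR adjusted p = 0.0194); over its 18 alternatives the adjusted p ranged from 0.0194 to 0.590.

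The lateral element gene *c(2)M* (FBgn0028525, chromosome 2L, 16303264 to 16305940) encodes a kleisin-related protein. Its levels were 14.3 and 16.7 CPM in the *bam* RNAi-labelled libraries and 20.9 and 18.4 CPM in the *Nipped-A* RNAi-labelled ones. The second group was slightly higher without overlap, and the log2 fold change of 0.34 ± 0.23 was not called (edgeR adjusted p = 0.325; 95% interval −0.25 to 0.93). Of its exonic bases, 140 are shared with *CG5861* on the opposite strand.

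**Figure D2:**
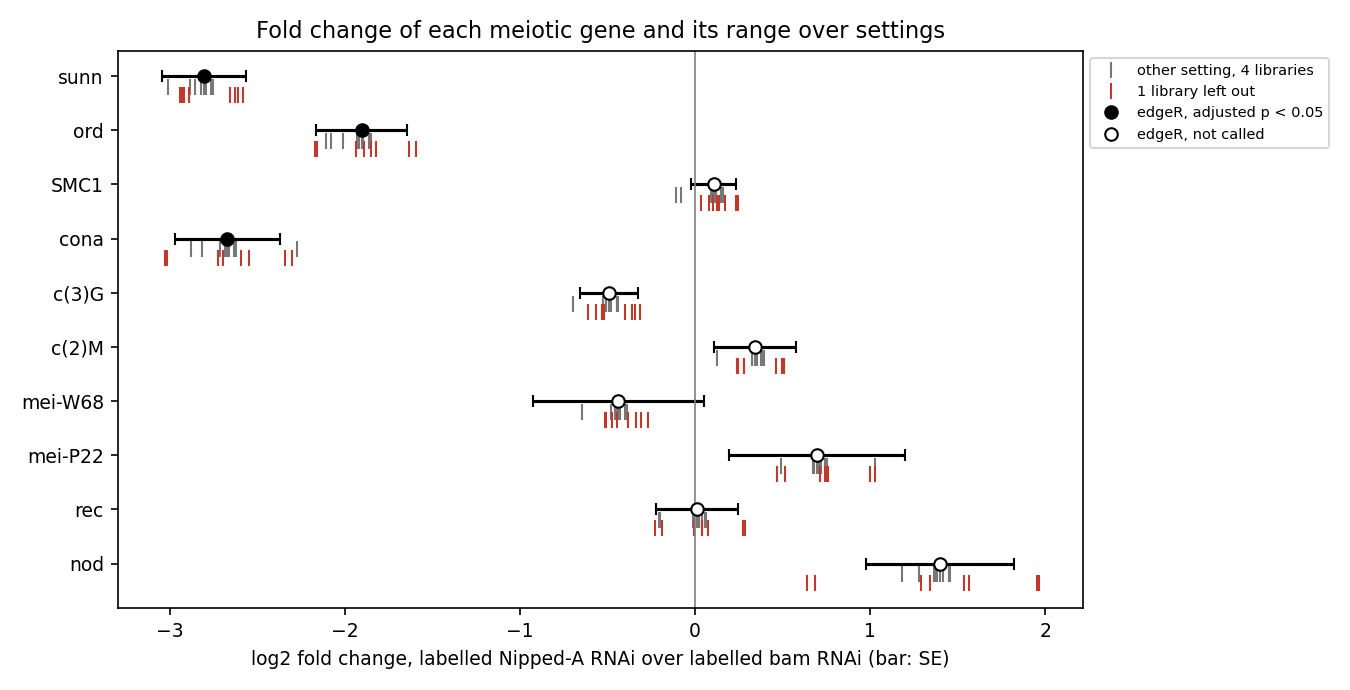
Log2 fold change of each meiotic gene, *Nipped-A* RNAi-labelled libraries over the *bam* RNAi-labelled ones, with its standard error as a bar; filled circles were called by edgeR, grey ticks are other settings with 4 libraries and red ticks are fits with 1 library left out. The ticks of *ord*, the smallest of the 3 called falls, run from −2.17 to −1.60, and those of *nod* from 0.64 to 1.97.

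The double-strand break genes had the fewest counts of the 10, with 35 to 143 per library. *mei-W68* (FBgn0002716, chromosome 2R, 19456170 to 19459523) encodes the Spo11 enzyme that cuts the DNA. It had 87, 66, 89 and 47 counts in *bam* RNAi-labelled libraries 1 and 2 and *Nipped-A* RNAi-labelled libraries 1 and 2, or 2.62, 2.81, 1.81 and 2.20 CPM. The *Nipped-A* RNAi-labelled libraries were both slightly lower, and the log2 fold change of −0.44 ± 0.49 was not called (edgeR adjusted p = 0.545; 95% interval −1.67 to 0.79). Of its 2300 exonic bases, 806 are shared with *par-1* on the same strand, a gene at 404 to 632 CPM, so its counts depend on how shared reads were treated.

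*mei-P22* (FBgn0016036, chromosome 3L, 7244388 to 7245383) encodes a partner of Mei-W68 in making breaks. It had 71, 35, 143 and 64 counts in the same order of libraries, or 2.14, 1.49, 2.91 and 3.00 CPM. The *Nipped-A* RNAi-labelled libraries were both higher, which is the direction opposite to *mei-W68*. The log2 fold change of 0.70 ± 0.50 was not called (edgeR adjusted p = 0.351), and its 95% interval of −0.57 to 1.97 is wide.

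*rec* (FBgn0003227, chromosome 3R, 15823019 to 15832632) encodes an MCM-related protein that promotes crossovers. It had 24.0 and 23.4 CPM in the *bam* RNAi-labelled libraries and 27.3 and 20.3 CPM in the *Nipped-A* RNAi-labelled ones. The values of the second group enclosed those of the first, and *rec* was the gene of the 10 whose groups overlapped. Its log2 fold change was 0.01 ± 0.23 (edgeR adjusted p = 0.981; 95% interval −0.58 to 0.60). Of its 4131 exonic bases, 1100 are shared with *alpha-Man-IIb* on the opposite strand, which was itself called higher (log2 fold change 2.09 ± 0.28, edgeR adjusted p = 0.0151).

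*nod* (FBgn0002948, chromosome X, 11580772 to 11585750) encodes a kinesin-like protein that keeps non-exchange chromosomes on the oocyte spindle. It had 27.4 and 23.3 CPM in the *bam* RNAi-labelled libraries and 93.9 and 39.7 CPM in the *Nipped-A* RNAi-labelled ones, from 908, 546, 4613 and 848 counts. Both of the latter were higher, but they differed from each other by −1.24 on the log2 scale, the widest replicate gap among the 10 genes. The log2 fold change of 1.40 ± 0.42 was not called (edgeR adjusted p = 0.0728; unadjusted 0.0192; 95% interval 0.33 to 2.47). It was 0.64 without *Nipped-A* RNAi-labelled library 1 and 1.95 without *Nipped-A* RNAi-labelled library 2, and edgeR called it in both cases (edgeR adjusted p = 0.0249 and 1.46e-05), while DESeq2 called it in the second case and not in the first. Over its 18 alternatives, DESeq2 with a library left out among them, its adjusted p reached 0.363.

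Levels can be compared between genes only after division by exonic length, here as CPM per kilobase of exon. In the *bam* RNAi-labelled libraries the level of *cona* was 111, the highest of the 10, ahead of *c(3)G* at 39.3 and *SMC1* at 35.5 CPM per kilobase, which overlapped each other. *sunn* followed at 23.0, *ord* at 17.0, *nod* at 10.3, *c(2)M* at 6.87 and *rec* at 5.73 CPM per kilobase, with no overlap between neighbours. *mei-P22* at 1.82 and *mei-W68* at 1.18 CPM per kilobase came last. The levels of *mei-W68* and *rec* were divided by all their exonic bases, those shared with *par-1* and *alpha-Man-IIb* included. Their places in both groups therefore depend on how shared reads were treated.

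In the *Nipped-A* RNAi-labelled libraries, *SMC1* led at 38.2 CPM per kilobase, ahead of *c(3)G* at 28.0, *nod* at 27.3 and *cona* at 17.5. The levels of *nod* overlapped those of its neighbours *c(3)G* and *cona*, and those of *SMC1*. *c(2)M* stood at 8.70 and *rec* at 5.76 CPM per kilobase. *ord* at 4.55 overlapped *rec* above it and *sunn* at 3.30 below it, and *sunn* in turn overlapped *mei-P22* at 2.97. *mei-W68* was last again, at 0.873 CPM per kilobase. *cona* thus went from the highest place to the fourth, and *sunn* and *ord* from places above *nod*, *c(2)M* and *rec* to places below them, *ord* overlapping *rec*.

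**Figure D3:**
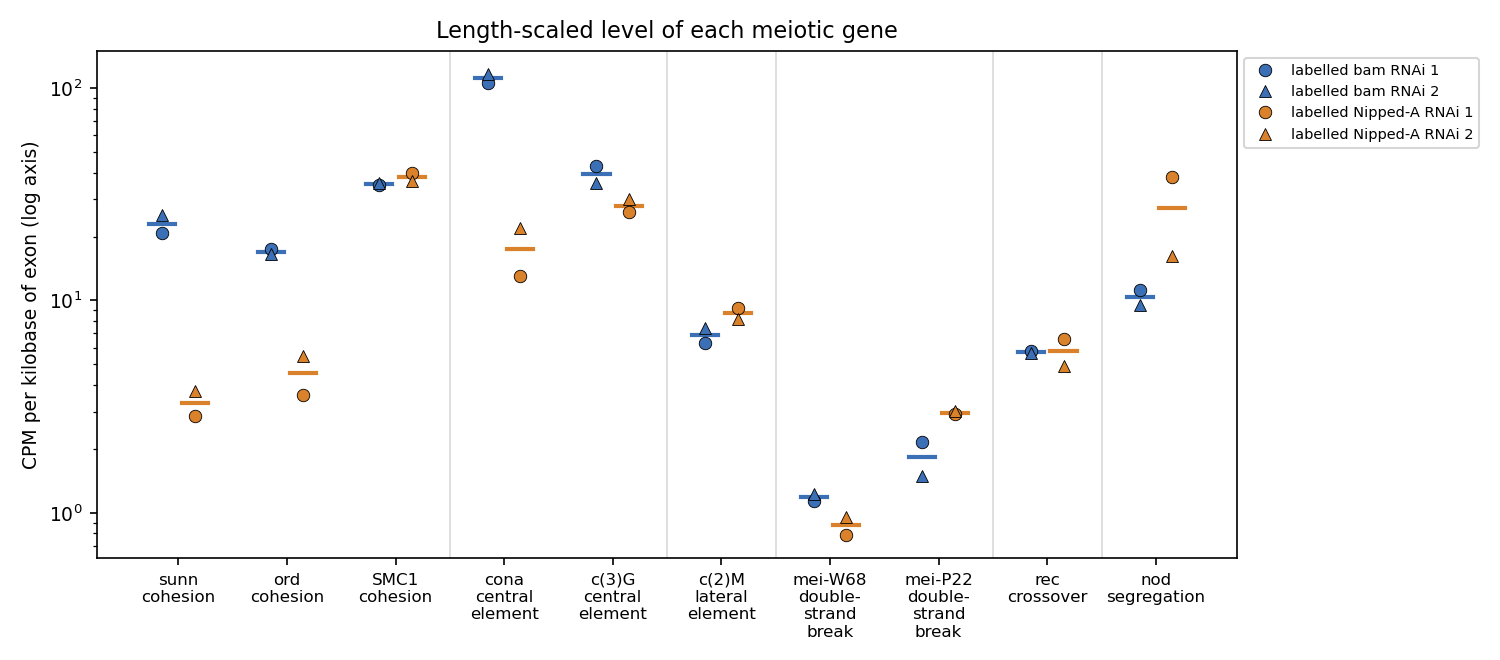
Level of each meiotic gene in CPM per kilobase of exon on a log axis, by library; circles are replicate 1, triangles replicate 2 and bars group means. *cona* leads in the *bam* RNAi-labelled libraries at a mean of 111, and *SMC1* leads in the *Nipped-A* RNAi-labelled ones at 38.2.

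Ratios between genes within 1 library do not depend on how libraries are scaled. For *sunn* against *SMC1* the log2 ratio of counts was −1.14 and −0.90 in the *bam* RNAi-labelled libraries and −4.19 and −3.67 in the *Nipped-A* RNAi-labelled ones, a 7.52-fold lower ratio. For *ord* against *SMC1* the log2 ratios were −1.01 and −1.12 against −3.47 and −2.74, a 4.10-fold lower ratio. Both meiotic cohesion genes therefore stood lower relative to the general cohesin subunit, and no library of one group overlapped the other.

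*sunn* also stood 1.83-fold lower relative to *ord*, with log2 ratios of −0.12 and 0.22 against −0.72 and −0.93. In the central region the ratio of *cona* to *c(3)G* was 4.68-fold lower, at −0.32 and 0.09 against −2.62 and −2.06 on the log2 scale. Such ratios still carry the length trend. With that trend removed the log2 fold changes of *cona* and *c(3)G* were −2.27 and −0.53, beside −2.67 and −0.49, so their gap was smaller. The lateral element gene stood higher relative to the transverse filament gene. The log2 ratio of *c(2)M* to *c(3)G* was −2.97 and −2.49 against −1.71 and −2.09, or 1.78-fold higher. The log2 ratio of *mei-W68* to *mei-P22* was 0.29 and 0.91 against −0.68 and −0.44, or 2.23-fold lower, from counts of 143 or fewer. In each of the 6 pairs the groups were fully separated. The share of all gene pairs with groups apart was not computed, and among single genes tested it was 68.9%. For each of the 6 pairs the exact permutation test (two-sided) gave p = 0.333, adjusted p = 0.333. This is the smallest value that 2 against 2 libraries can give. The differences in these pairs were larger than the spread between replicates but cannot pass a threshold of 0.05.

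**Figure D4:**
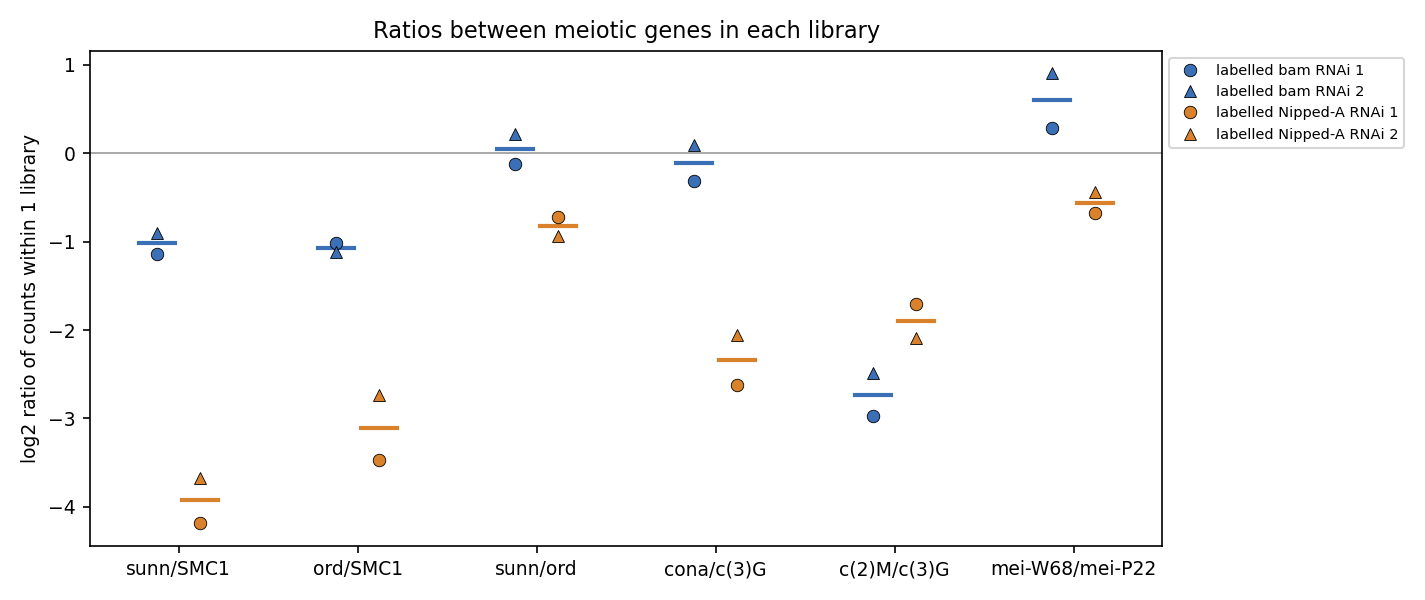
Log2 ratio of the counts of 2 genes within each library, for 6 pairs of meiotic genes; circles are replicate 1, triangles replicate 2 and bars group means. The groups are apart in every pair (among single genes tested, at 68.9%). The ratios of *sunn* and *ord* to *SMC1* and of *cona* to *c(3)G* are lower in the *Nipped-A* RNAi-labelled libraries.

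Among the other meiotic genes, in 4 lists, *hdm* was the one that fell by edgeR, and upper-quartile scaling called 1 gene lower in each list. Over all genes tested, 11.3% were called higher and 8.31% lower by edgeR. Without *Nipped-A* RNAi-labelled library 1 the list medians ran from −0.01 to 0.33. More genes were then called lower in each list. More were called lower over all genes too, where the log2 fold change of the median gene moved by −0.01. Of 16 other cohesion genes listed 14 were tested, of which 4 rose and 0 fell by edgeR, with a median log2 fold change of 0.45 (at an unadjusted p below 0.05, 7 higher and 1 lower; by DESeq2, 7 and 0). The risers were the cohesin loader *Nipped-B* (1.26 ± 0.19), the securin *pim* (1.42 ± 0.27), the cohesin release factor *wapl* (1.37 ± 0.26) and the separase-associated gene *thr* (1.02 ± 0.25). With the length trend removed *wapl* and *thr* were not called. *thr* was also not called under upper-quartile scaling, limma-voom, or DESeq2 without *bam* RNAi-labelled library 2. The partners of SMC1 in the cohesin ring were not called: *SMC3* had a log2 fold change of 0.19 ± 0.14, the kleisin *vtd* 0.29 ± 0.14 and the stromalin gene *SA*, listed as *SA1*, 0.27 ± 0.15. Without *Nipped-A* RNAi-labelled library 2 the median of the 14 was 0.69, and more of them were called higher. More were called higher over all genes too, where the log2 fold change of the median gene moved by 0.07.

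Of 12 other genes of the synaptonemal complex and break formation 10 were tested, and their median was 0.17. *mei-P26*, a translational regulator of cyst growth that also affects meiotic recombination, rose (0.91 ± 0.17), and 0 fell by edgeR (also 0 by DESeq2 or with unadjusted p-values below 0.05). The median was −0.04 under upper-quartile scaling and −0.01 without *Nipped-A* RNAi-labelled library 1. The call of *mei-P26* ended with the length trend removed. The break-formation factor gene *trem* (0.19 ± 0.22) and the pro-crossover RING finger genes *narya* (0.35 ± 0.51) and *nenya* (−0.48 ± 0.39) were not called. *corolla* and *vilya* were not analysed here.

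Of 16 repair and crossover genes 14 were tested, of which 3 rose and 1 fell, with a median of 0.35. Without *Nipped-A* RNAi-labelled library 1 the median was 0.0080, and without library 2 of that group it was 0.73. In the second case more of these genes were called higher. More were called higher over all genes too, where the log2 fold change of the median gene moved by 0.07. *hdm*, which encodes a single-strand DNA-binding-like protein of the crossover machinery, fell from 8.44 and 12.2 CPM to 1.91 and 2.39 CPM (−2.27 ± 0.41, edgeR adjusted p = 0.0237), and DESeq2 did not call it without *bam* RNAi-labelled library 2. The helicase gene *Blm* (1.18 ± 0.20), the recombination mediator *Brca2* (0.83 ± 0.19) and the nuclease gene *mus81* (1.78 ± 0.41) rose. *Brca2* was not called with the length trend removed, under upper-quartile scaling, or by DESeq2 without *bam* RNAi-labelled library 1 or 2. *mus81* was not called under limma-voom. *mei-217* and *mus312* were listed at 0 counts in all 4 libraries and were not tested. Since the handling of shared reads is not given, these counts alone do not show that the genes are silent.

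Of 18 spindle and segregation genes, the functional neighbours of *nod*, 3 rose and 0 fell by edgeR (DESeq2 and unadjusted p-values below 0.05 each gave 1 fall), with a median of 0.35. *mtrm*, which restrains Polo kinase in the oocyte, went from 29.7 and 35.2 CPM to 230 and 121 CPM (2.44 ± 0.34), the cyclin gene *CycB3* rose by 1.40 ± 0.24, and the microtubule polymerase gene *msps* by 0.77 ± 0.13. The call of *msps* ended with the length trend removed. Without *Nipped-A* RNAi-labelled library 2 the median was 0.68, and more of the 18 were called higher. More were called higher over all genes too, where the log2 fold change of the median gene moved by 0.07. Without *Nipped-A* RNAi-labelled library 1 the median was −0.00089, with calls in both directions.

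**Figure D5:**
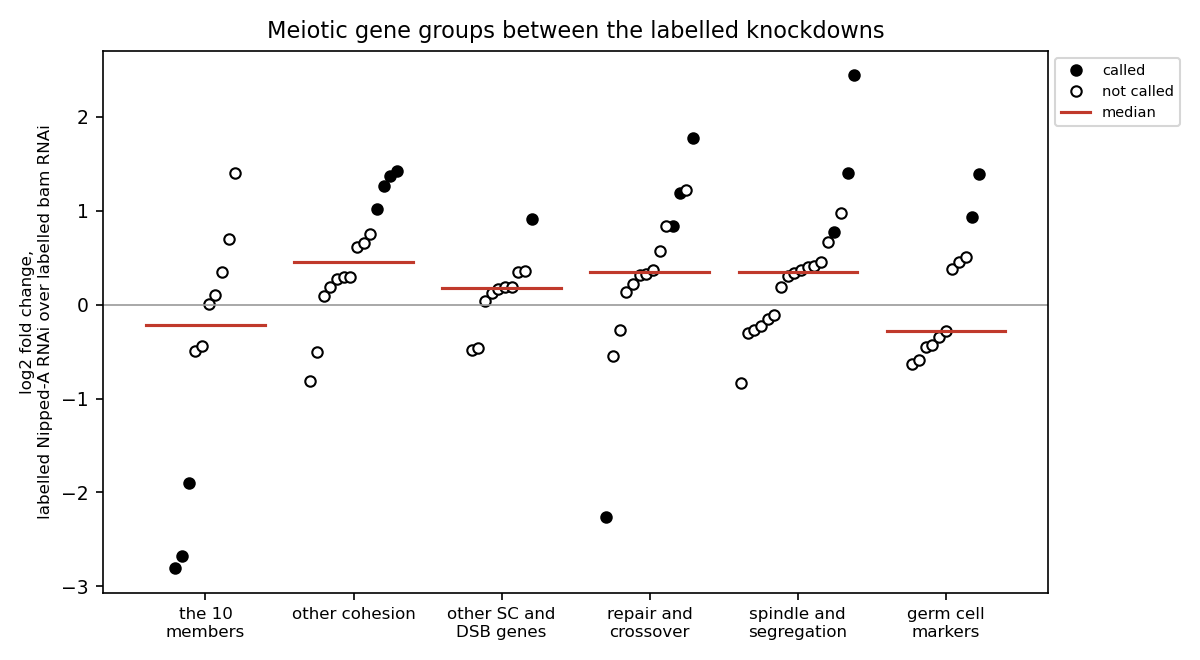
Log2 fold change of the 10 meiotic genes, of 4 groups of other meiotic genes and of germ cell markers, 1 point per gene tested; filled points were called by edgeR and red lines are medians. The 3 called falls among the 10 genes and that of *hdm* lie between −2.81 and −1.90, and the lowest germ cell marker lies at −0.63.

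In bulk RNA, fewer cells of a type and less RNA per cell cannot be told apart. Of 11 germ cell markers tested 2 rose, *tud* (0.93 ± 0.16) and *nanos* (1.38 ± 0.32), and 0 fell by edgeR (DESeq2 gave 1 fall, as did unadjusted p-values below 0.05), with a median of −0.28 and a lowest value of −0.63. Upper-quartile scaling and removal of the length trend each gave 2 rises and 2 falls. There was 1 fall with no filter, with a filter of at least 1 CPM in 2 libraries, under robust moderation and with the replicate block. RLE scaling, no scaling and limma-voom gave 0 falls. Without *Nipped-A* RNAi-labelled library 1 the median was −0.43, and more of these markers were called lower. More were called lower over all genes too, where the log2 fold change of the median gene moved by only −0.01. The limma-voom fit and robust moderation ended the call of *nanos*. The summed level of these markers was 1623 to 1733 CPM in the *bam* RNAi-labelled libraries and 1939 to 2173 CPM in the *Nipped-A* RNAi-labelled ones. Within it *tud* had 410 and 376 against 668 and 831 CPM, and *nanos* 97.8 and 83.7 against 311 and 163 CPM. Of the 11 markers, 6 had negative and 5 had positive log2 fold changes. Beside the lowest marker value of −0.63, *sunn*, *ord* and *cona* had log2 fold changes of −2.81, −1.90 and −2.67, and the difference was not tested.

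Of 11 genes of cyst differentiation 6 rose and 1 fell, where 11.3% of all genes tested rose and 8.31% fell. *bam*, 1 of the 6, is itself the target of the hairpin in the *bam* RNAi-labelled libraries. Its rise therefore cannot be told apart from that knockdown. Removal of the length trend gave 5 rises and 3 falls. The call of *BicD*, another of the 6, ended there, under upper-quartile scaling, by limma-voom, and by DESeq2 without *bam* RNAi-labelled library 2. The one that fell was *bgcn*, the partner of *bam*, from 113 and 106 CPM to 14.2 and 20.7 CPM (−2.66 ± 0.24), while *otu* (2.00 ± 0.21), *orb* (1.83 ± 0.26) and *egl* (0.96 ± 0.14), which act in cyst growth and oocyte fate, rose. Of 11 maternal oocyte transcripts 8 rose and 0 fell by edgeR (also 0 by DESeq2 or with unadjusted p-values below 0.05), and their summed level was 710 to 721 CPM against 2436 to 4210 CPM.

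Markers of other cells differed as well. Of 10 muscle sheath markers tested 8 fell (summed 27737 to 27828 CPM against 8158 to 10876 CPM), and of 7 hemocyte markers 4 fell and 1 rose (7393 to 8384 against 3258 to 3376 CPM), with 6 falls by DESeq2. The collagen genes *Col4a1* and *vkg* were among the 4 falls, and *Col4a1* alone had 3044 and 2622 against 820 and 889 CPM. Which cells made these collagen transcripts was not tested. Of 8 follicle cell markers 1 rose and 2 fell (1254 to 1381 against 980 to 1305 CPM). Their median was −0.28, and −0.56 without *Nipped-A* RNAi-labelled library 2, where more of them fell. More fell over all genes too, where the log2 fold change of the median gene moved by 0.07. Of 5 cap and escort cell markers 1 fell (148 to 161 against 90.0 to 109 CPM). Of 7 fat body markers 2 rose and 4 fell, with a median log2 fold change of −5.27. Their summed level was higher all the same (862 to 921 against 1566 to 1740 CPM), and *apolpp* alone had 493 and 419 against 1248 and 1317 CPM. Robust moderation left 2 of the 4 falls, and DESeq2 left 1 without either *bam* RNAi-labelled library. All 8 gut markers rose by edgeR (4.25 to 4.69 against 884 to 2794 CPM), but limma-voom called 2 of them and robust moderation 4. *LysE*, at 0 in both *bam* RNAi-labelled libraries, was called by neither. Of 4 testis markers tested *aly* fell (summed 25.7 to 29.8 against 14.5 to 16.7 CPM), a call that ended under the replicate block, with the length trend removed and by DESeq2 without either *bam* RNAi-labelled library, and *comr* was at 0 in all 4 libraries. The part of these cells in the falls of *sunn*, *ord* and *cona* was not tested.

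The tested genes whose log2 CPM pattern over the 4 libraries lay nearest to that of a called meiotic gene were also low in the *Nipped-A* RNAi-labelled libraries, as that choice requires. The nearest to *sunn* were *CG33679* and *Twdlbeta*, at Euclidean distances of 0.09 and 0.11 on the centred log2 scale. *CG33679* had 18, 17, 1 and 1 counts, and its distance rests on the prior count of 2. Its log2 fold change was −4.23, not called, against −2.81 for *sunn*. The nearest to *ord* were *Frq2* (0.08) and *Cyp313a4* (0.08), and the nearest to *cona* were *Nepl19* (0.08) and *CG13540* (0.10). With 4 libraries such likeness is a description only.

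Across all genes, 2004 of 10245 were called, or 19.6%, with 1153 higher and 851 lower in the *Nipped-A* RNAi-labelled libraries. Upper-quartile scaling turned that split to 853 higher and 1556 lower. *cona* shares 47 exonic bases with *Vha100-4* on the opposite strand, a gene at 0.121 and 0.0852 CPM against 18.5 and 26.8 CPM, which is the direction opposite to *cona*.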

How the data were processed

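Raw gene-level counts were deposited by the authors, 1 table per library. Libraries were stranded, from poly(A) RNA, per the labels' protocols; HISAT2 2.1.0, featureCounts 1.6.0.4, edgeR 3.16.5 and dm6 are named in the submitters' processing notes. The annotation, strand setting and handling of shared reads are not given in the sources used. Positions, exonic lengths and overlaps come from Ensembl gene models on dm6 coordinates, matching 16647 of 17023 identifiers; RefSeq synonyms gave *SA1* and *SA2* for *SA* and *snm*.

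Counts were filtered with filterByExpr (6778 genes not tested), TMM-scaled (factors 0.980, 0.983, 1.03 and 1.01) and fitted with edgeR 4.0.16 (R 4.3.3; glmQLFit, glmQLFTest, two-sided). The standard error is the size of the log2 fold change over the square root of F. Pair ratios used a pseudocount of 0.5 counts. Alternatives used limma 3.58.1, DESeq2 1.42.0 and settings given below; steps were tested on simulated counts. The meiotic genes, lists and tests were chosen with earlier results of these data known. The rule for named genes was the 10 meiotic genes, up to 4 called members of every other list by smallest adjusted p, and the 2 nearest genes by pattern for each called meiotic gene. It was not followed for the maternal transcripts and the somatic, gut and testis markers, which are given mainly as counts and sums; *LysE*, *comr*, *BicD* and the uncalled genes named were chosen after their values were seen. *solo*, *dmt*, *corolla*, *vilya*, *vas*, *br*, *wg* and *wupA* were not analysed here.

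Pearson correlations of log2 CPM (prior count 2) were 0.972 and 0.954 within the groups and 0.830 to 0.898 between them. Depth limits *mei-W68* and *mei-P22* most, with 35 to 143 counts per library.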

Additional observations from a re-analysis of the deposited data

How the results depend on the processing

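*sunn*, *ord* and *cona* kept their direction and their call under each of the 10 alternatives with 4 libraries (RLE, upper-quartile or no scaling, 2 other filters, DESeq2, limma-voom, robust moderation, the replicate block, the length trend removed). Their log2 fold changes over all 18 alternatives ranged from −3.01 to −2.59, −2.17 to −1.60 and −3.03 to −2.27. The calls ended without *bam* RNAi-labelled library 1 or 2 with edgeR, where 1 library stood for its group and was assumed to vary like the other; the cause was not tested. DESeq2 with a library left out was added after seeing the data and called all 3 in each of the 4 cases. The sign of *SMC1* (−0.11 to 0.24) and *rec* (−0.23 to 0.28), not called under any alternative, was not stable.

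The count of meiotic genes called higher went from 0 to 1, in each case *nod*, with no filter, DESeq2 or the replicate block (adjusted p = 0.0149, 0.00302 and 0.0405). With 1 library left out it was 0 to 1 and the count called lower 0 to 4. Over all genes the counts were then 0 to 2511 higher and 0 to 1771 lower, and DESeq2 with all libraries called 2106 and 1415. DESeq2 called 1896 and 2266 higher and 1293 and 1482 lower without *Nipped-A* RNAi-labelled library 1 and 2, and 451 and 330 lower without *bam* RNAi-labelled library 1 and 2. Upper-quartile scaling called 1556 lower. The cause of these shifts was not tested. The pair ratios kept their direction under a pseudocount of 2 and with each library left out.

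Same-numbered libraries did not deviate together (correlation −0.0756). This cannot show whether they were collected or prepared together. With the number as a block 1813 genes were called in place of 2004.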
